A study of Mus musculus with 6 samples.

Results

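Fatty acids are shortened by β-oxidation in 2 organelles, and 40 genes of this process were followed in mouse islets, out of 55060 genes in the deposited table. They encode the enzymes and transporters of peroxisomal β-oxidation, the peroxins that build the peroxisome, the enzymes of mitochondrial β-oxidation and the PPAR regulators of both. The genes were picked by name, and they were chosen because the FPKM of *Ehhadh* was higher in cKO than in Ctrl islets of these same samples. The question was whether *Ehhadh* was higher alone or together with the rest of the process. The difference of *Ehhadh* between the genotypes is therefore given as a description, without a test. Where a count of genes that passed includes *Ehhadh*, nothing is read from its call.

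Islets of mice aged 12 weeks were profiled by RNA-seq, with 3 samples of each genotype. The cKO mice were *Ins2-Cre; Parn^f/f*, in which the recombinase removes the loxP-flanked exon 7 of *Parn*, a poly(A)-specific ribonuclease, in cells where the *Ins2* promoter is active. Ctrl islets came from *Parn^f/f* mice and from other littermates of the cKO mice, and a Ctrl sample is not assigned to either. All cKO mice carried *Ins2-Cre*, and whether any Ctrl sample did is not given. In a difference between the genotypes, the *Ins2-Cre* transgene and the loss of *Parn* therefore cannot be told apart. Whole islets were sequenced, so each sample also holds RNA of α, δ and other cells that keep *Parn*. Values are FPKM, the fragments on a gene scaled by gene length and by a total for each sample. These scaling totals, read back from the steps between FPKM values, were 17448159, 15731223 and 16636542 for Ctrl. For cKO they were 17567373, 17386442 and 18085944. They are not the reads on genes, which summed to 17519109, 16470783 and 17143763 in Ctrl, more than the totals, and to 17064511, 16289408 and 17944775 in cKO, less than the totals. Here and below, the values of a genotype follow the order of its replicates 1, 2 and 3. The labels do not say whether the samples of a genotype came from separate animals, so the p-values measure the spread between these samples, which may be technical in part.

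*Parn* was measured at an FPKM of 6.64, 8.34 and 7.38 in Ctrl, compared with 4.97, 4.61 and 6.15 in cKO. Each cKO sample lay below each Ctrl sample, the direction of the knockout that the labels name. The islet identity was clear from *Ins2*, at 154877, 170487 and 178676 in Ctrl and 109030, 124186 and 132945 in cKO, and from the glucagon gene *Gcg*, at 8219 or more in each sample. In such bulk samples, fewer cells of a type and less RNA per cell cannot be told apart.

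In textbook terms, peroxisomes shorten very long, branched and dicarboxylic fatty acids, and mitochondria oxidise the long, medium and short chains that enter through the carnitine shuttle. The peroxisomal cycle uses an acyl-CoA oxidase, a bifunctional enzyme with hydratase and dehydrogenase activity, and a thiolase, and the hydrogen peroxide it forms is broken down by catalase. In liver, PPARα switches on genes of both organelles in fasting, and *Ehhadh* is a classic target. In β cells, fatty acid oxidation competes with glucose as a fuel, and the short-chain dehydrogenase encoded by *Hadh* also restrains insulin release.

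*Ehhadh* stood apart from the other 39 genes. It encodes the L-bifunctional enzyme of the peroxisome, which carries out the hydratase and dehydrogenase steps and is needed for dicarboxylic acids. Its FPKM was 8.56, 9.02 and 7.36 in Ctrl islets, from 445, 423 and 365 reads. In cKO islets it was 21.5, 18.2 and 23.7, from 1127, 945 and 1278 reads. The lowest cKO sample was thus above the highest Ctrl sample, and the samples within each genotype lay close together. The Ctrl mean was 8.31 ± 0.857 (SD, n = 3) and the cKO mean 21.2 ± 2.75, 154% higher. On the log2(FPKM + 1) scale, where differences at low FPKM come out too small, the log2 fold change was 1.25. The other 39 genes had log2 fold changes between -0.32, for *Acaa2*, and 0.18, for *Hadhb*. Without Ctrl replicate 1 this range widened to -0.55, for *Cpt1a*, and 0.48, for *Cat*. Under voom it ran from -0.91, for *Acaa1b*, to 0.45, for *Ppargc1a*, both with few reads, and with a pseudocount of 0.1 its low end was -0.78, for *Acaa1b*. *Ehhadh* was not the gene of the islets with the largest difference: 87 genes tested had a log2 fold change at least as large, itself included.

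All 40 genes passed the filter of a mean FPKM of at least 0.1, as did 21211 genes in all. Of the 40, 9 had a higher and 31 a lower mean log2 value in cKO, whereas 46.5% of all genes tested had a higher one. With limma, 0 of the 39 genes other than *Ehhadh* and 0 (0%) of all genes tested had an adjusted p under 0.05. The lowest that any gene reached was an adjusted p of 0.274. With voom of limma, run on the recovered reads, 2 of all genes and 0 of these 39 passed. Before adjustment, p was under 0.05 with higher values in cKO for 0 of the 39, beside 4.33% of all genes tested, and 1 was lower, *Abcd2*, beside 3.07%. In 1 of the 39, *Hadhb*, each cKO sample was above each Ctrl sample, as in 7.11% of all genes tested. In 3, *Abcd2*, *Pex11a* and *Pex13*, each cKO sample was below each Ctrl sample, as in 6.03%. Since the choice of genes used the same contrast, nothing is read from these counts. The median log2 fold change was -0.08 for the 22 peroxisomal genes other than *Ehhadh* and -0.10 for the 14 mitochondrial genes, against -0.01 for all genes tested. Median-ratio scaling of the FPKM gave medians of -0.07, -0.10 and -0.01. Under voom, which takes the reads on genes as the total and also differs in offset and weights, 20 of the 40 were higher and 20 lower, 59.7% of all genes tested were higher, and 11 of the 40 changed sign, *Hadh*, *Hadha* and *Abcd3* among them. The medians were then -0.0033 for the peroxisomal genes and -0.022 for the mitochondrial ones, against 0.069 for all genes tested.

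**Figure D1:**
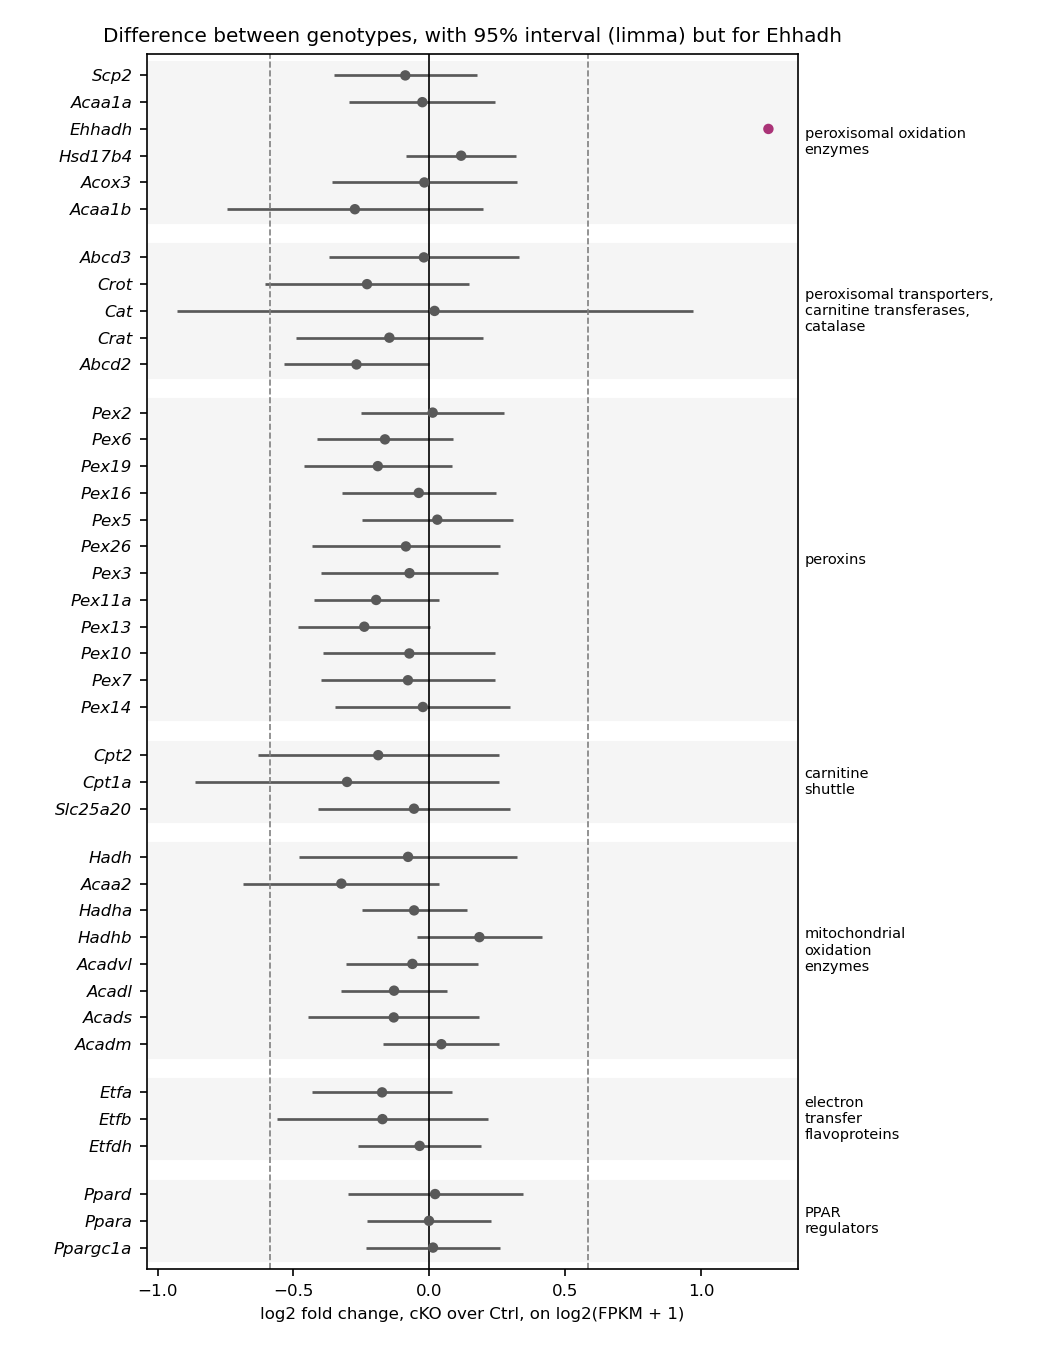
Log2 fold change of cKO over Ctrl islets for each of the 40 genes on the log2(FPKM + 1) scale (points), with the 95% interval from limma (lines) for all but *Ehhadh*, grouped by role; the dashed lines mark 0.58, the log2 of 1.5, in either direction on this scale. *Ehhadh* lies at 1.25, and the other 39 genes lie between -0.32 and 0.18 with all 6 samples (-0.55 and 0.48 without Ctrl replicate 1).

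The intervals show how large a difference in the other genes these 6 samples leave possible. Besides *Ehhadh*, 35 genes reached a mean FPKM of 1. The ends of each 95% interval were turned back from log2(FPKM + 1) into ratios of FPKM. In 34 of the 35 genes the upper end was below a 1.5-fold rise in FPKM, and the exception was *Cat*, with an upper end of 2.22 times. In 26 of the 35, both ends lay within a 1.5-fold difference in FPKM. The remaining 4 genes, *Acaa1b*, *Abcd2*, *Ppara* and *Ppargc1a*, had a mean FPKM under 1, where the scale compresses differences and the reads are few.

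Among the peroxisomal enzymes other than *Ehhadh*, 1 had a higher mean and 4 a lower mean in cKO, with a median log2 fold change of -0.03, whereas under voom 3 were higher and 2 lower. *Scp2*, which encodes sterol carrier protein X, a thiolase for branched chains, and a lipid carrier, was the most abundant of them. The FPKM of *Scp2* was 42.5, 44.6 and 35.9 in Ctrl and 35.3, 41.0 and 38.8 in cKO. These ranges overlapped. The D-bifunctional enzyme gene *Hsd17b4*, whose product catalyses the same pair of steps as that of *Ehhadh*, had an FPKM of 8.60, 9.15 and 9.98 in Ctrl against 9.90, 10.2 and 10.2 in cKO. The log2 fold change of *Hsd17b4* was 0.12, with a 95% interval from -0.09 to 0.32, and Ctrl replicate 3 lay within the cKO values, although not as CPM, the reads scaled by all reads on genes, where it was at 33.0 and the lowest cKO sample at 34.7. In Ctrl islets the genes of both bifunctional enzymes were thus at a similar FPKM, while in each cKO sample *Ehhadh* was above *Hsd17b4*.

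The oxidase gene *Acox3*, for branched chains, had a mean FPKM of 1.83 ± 0.378 in Ctrl and 1.78 ± 0.192 in cKO. The thiolase gene *Acaa1a* had 18.9, 18.2 and 17.4 in Ctrl and 19.8, 15.2 and 18.8 in cKO. Its neighbour in sequence, *Acaa1b*, is a near copy, identical in 96.5% of 1272 aligned coding bases, with a longest identical run of 327 bases. *Acaa1b* had 24, 28 and 21 reads in Ctrl and 14, 30 and 5 in cKO, and the division of reads between both copies is uncertain. Its log2 fold change was -0.27, and it was -0.46, past an unadjusted p under 0.05, without cKO replicate 2.

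Summed over the 6 peroxisomal enzymes, the FPKM was 81.2, 83.2 and 73.4 in Ctrl and 88.8, 87.1 and 93.6 in cKO. Without *Ehhadh* the sums were 72.7, 74.2 and 66.1 in Ctrl and 67.3, 68.9 and 69.9 in cKO, which overlapped. *Ehhadh* made up at most 10.8% of the sum in a Ctrl sample and at least 20.9% in a cKO sample. In each Ctrl sample 3 of these enzyme genes were above *Ehhadh*, and in each cKO sample 1 was, *Scp2*.

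**Figure D2:**
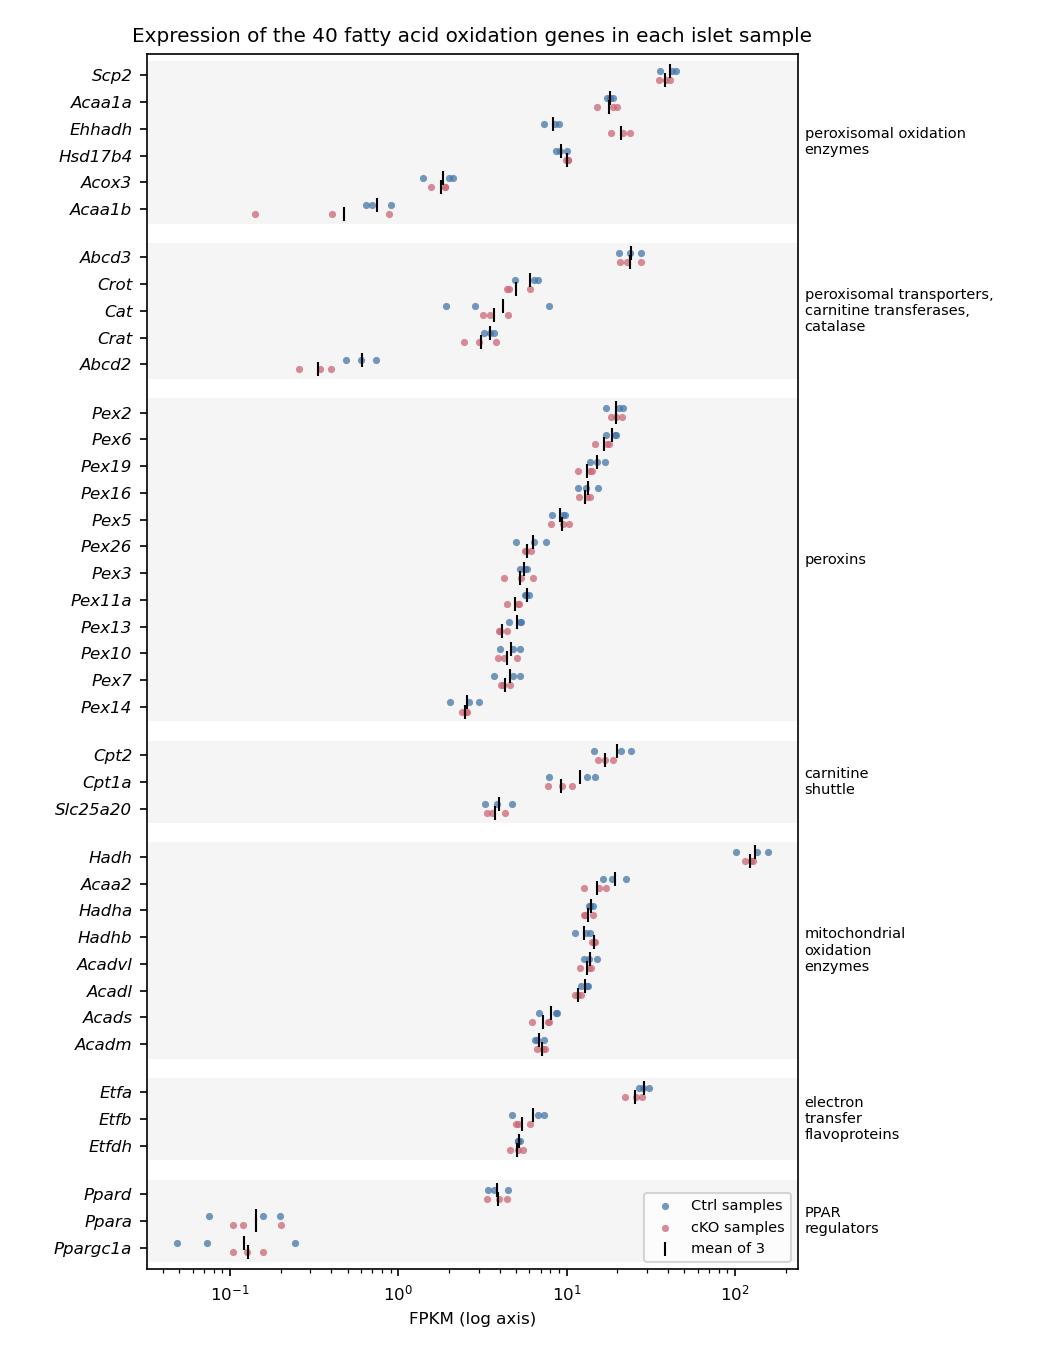
FPKM of the 40 genes in each of the 3 Ctrl and 3 cKO samples on a log axis (dots), with the mean of each genotype (black bars), grouped by role. *Ehhadh* is at 8.56, 9.02 and 7.36 in Ctrl and at 21.5, 18.2 and 23.7 in cKO, while *Hadh* is the most abundant gene in both genotypes.

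The peroxisomal membrane transporters carry acyl-CoA into the organelle. *Abcd3*, for branched and dicarboxylic chains and the main one in these islets, had an FPKM of 20.6, 23.9 and 27.5 in Ctrl and of 22.7, 20.6 and 27.5 in cKO. Both genotypes covered the same range. *Abcd2*, for very long chains, was low, at 0.733, 0.492 and 0.596 in Ctrl and 0.258, 0.397 and 0.344 in cKO. Behind these values were 76, 46 and 59 reads in Ctrl and 27, 41 and 37 in cKO. Each cKO sample of *Abcd2* lay below each Ctrl sample, at a limma adjusted p = 0.670 and a log2 fold change of -0.27. The value was -0.71 with a pseudocount of 0.1 and -0.78 under voom, since the main scale compresses differences at this level, and its unadjusted p did not pass 0.05 in 8 of the 12 alternatives that tested it, among them the replicate block and 5 of the 6 fits with 1 sample left out. *Crat* and *Crot*, whose products move acyl groups onto carnitine for export, had log2 fold changes of -0.15 and -0.23.

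Catalase (*Cat*), a gene known for its low level in β cells, varied widely within Ctrl. Its FPKM was 7.81, 2.85 and 1.93 in Ctrl and 3.20, 3.50 and 4.46 in cKO. Ctrl replicate 1 was above the other 5 samples. The summed FPKM of 8 leukocyte markers was also highest there, at 714, against 89.2 and 81.1 in the other Ctrl samples and 126, 160 and 166 in cKO. Their most abundant gene, *Lyz2*, reached 539 there and 15.6 to 56.0 elsewhere, and 0 of the 8 passed an unadjusted p under 0.05. Its part in the *Cat* values was not tested. Without Ctrl replicate 1 the log2 fold change of *Cat* was 0.48, and it passed an unadjusted p under 0.05 with higher values, beside 5.87% of all genes then tested.

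The 12 peroxins import proteins into the peroxisome, build its membrane or divide it. Of them, 2 had a higher and 10 a lower mean in cKO, with log2 fold changes from -0.24 to 0.03 and a median of -0.08, compared with 4 higher and 8 lower under voom. *Pex2*, a ubiquitin ligase of the import machinery and the most abundant peroxin, had an FPKM of 21.5, 20.4 and 17.1 in Ctrl against 18.4, 21.3 and 19.6 in cKO. *Pex11a*, which acts in peroxisome division and is induced by PPARα in liver, had 5.71, 5.67 and 6.01 in Ctrl and 5.24, 4.43 and 5.16 in cKO. *Pex13*, a membrane protein of the import pore, had 5.31, 5.35 and 4.54 in Ctrl and 4.41, 3.95 and 4.04 in cKO. In the last pair of genes the FPKM of the genotypes did not overlap, and the values in cKO were lower, with log2 fold changes of -0.20 and -0.24. As CPM, *Pex13* overlapped, as cKO replicate 1, at 21.1, was above Ctrl replicate 3, at 20.5. The summed FPKM of the peroxins was 105, 117 and 109 in Ctrl and 102, 103 and 104 in cKO.

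The carnitine shuttle brings long-chain acyl groups into mitochondria. *Cpt2*, which encodes the transferase of the inner membrane, had an FPKM of 14.5, 20.9 and 24.0 in Ctrl and of 18.7, 15.3 and 16.9 in cKO. *Cpt1a*, for the regulated transferase of the outer membrane, had 7.90, 13.2 and 14.8 in Ctrl and 10.7, 7.72 and 9.41 in cKO. In both genes Ctrl replicates 2 and 3 lay above all cKO samples and Ctrl replicate 1 among or below them. The log2 fold changes were -0.19 for *Cpt2*, -0.30 for *Cpt1a* and -0.06 for the translocase gene *Slc25a20*.

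Of the 8 mitochondrial enzyme genes, 2 had a higher and 6 a lower mean in cKO, with a median log2 fold change of -0.07. Under voom the balance turned to 5 higher and 3 lower, with a median of 0.01. *Hadh* had the highest FPKM of all 40 genes, at 102, 158 and 134 in Ctrl and 124, 115 and 129 in cKO, and its mean was above that of 99.0% of the genes tested. The cKO values lay within the Ctrl range. *Hadha* and *Hadhb* encode the α and β subunits of the trifunctional protein, which completes the cycle for long chains. *Hadhb* had an FPKM of 13.0, 13.8 and 11.2 in Ctrl against 14.6, 14.8 and 14.1 in cKO, without overlap, and a log2 fold change of 0.18 with a 95% interval from -0.05 to 0.41. *Hadha* had 14.3, 13.6 and 13.7 in Ctrl and 12.9, 14.3 and 12.7 in cKO, and its log2 fold change was -0.06, compared with 0.03 under voom. The thiolase gene *Acaa2* had the lowest log2 fold change, with an FPKM of 16.5, 22.5 and 18.7 in Ctrl against 17.1, 15.6 and 12.7 in cKO, and the genotypes overlapped. The acyl-CoA dehydrogenase genes *Acadvl*, *Acadl*, *Acadm* and *Acads*, for chains from very long to short, had log2 fold changes of -0.06, -0.13, 0.04 and -0.13.

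The electron transfer flavoproteins hand the electrons of these dehydrogenases to the respiratory chain. *Etfa*, the most abundant of their genes, had an FPKM of 27.0, 31.0 and 28.3 in Ctrl and of 22.3, 26.0 and 28.1 in cKO, and 1 cKO sample lay within the Ctrl values. All 3 genes had a lower mean in cKO, with log2 fold changes of -0.17 for *Etfa*, -0.17 for *Etfb* and -0.04 for *Etfdh*, although that of *Etfdh* was 0.04 under voom.

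Ctrl replicate 1 parted from Ctrl replicates 2 and 3 in many of these genes. In 12 of the 40, *Crot*, *Pex6*, *Pex7*, *Pex14*, *Pex19*, *Pex26*, *Cpt1a*, *Cpt2*, *Acads*, *Acaa2*, *Hadh* and *Etfa*, Ctrl replicates 2 and 3 lay above all cKO samples and Ctrl replicate 1 did not, as in 8.51% of all genes tested. As CPM, 5 of the 12, *Pex7*, *Pex14*, *Pex19*, *Pex26* and *Etfa*, lost this pattern, which left 7, beside 5.23% of all genes tested. Without Ctrl replicate 1, 15 of the 40 were lower in cKO without overlap, beside 14.8% of the 20965 genes then tested, and *Cpt1a*, *Cpt2* and *Acaa2* passed an unadjusted p under 0.05 with lower values, while *Abcd2* did not. Over all genes, the number lower at that p was then 1142 (5.45%), against 651 with all samples. The log2 fold change of *Ehhadh* was 1.27 without that sample. The part of the leukocyte RNA of Ctrl replicate 1 in these values was not tested.

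The regulators overlapped between the genotypes. *Ppard* encodes the PPAR that was most abundant of the PPAR genes among the 40, with an FPKM of 3.39, 3.70 and 4.50 in Ctrl against 3.98, 3.38 and 4.42 in cKO. *Ppara*, the PPAR that drives *Ehhadh* in liver, was near the limit of detection, with 5, 12 and 10 reads in Ctrl and 7, 8 and 14 in cKO. The coactivator gene *Ppargc1a* had 28, 5 and 8 reads in Ctrl and 12, 18 and 15 in cKO. Their log2 fold changes were 0.02, 0.00 and 0.01. Under voom that of *Ppara* was 0.13 and that of *Ppargc1a* 0.45, and *Ppargc1a* was at 0.14 with a pseudocount of 0.1, so for *Ppara* and *Ppargc1a* a difference was not detectable at this depth.

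Other genes of the pathways are described from lists that hold none of the 40, and 0 of them had an adjusted p under 0.05. Their counts at an unadjusted p stand beside the 4.33% higher and 3.07% lower of all genes tested. At an unadjusted p under 0.05, 24 other peroxisomal genes tested held 1 that was higher and 2 that were lower, and the median log2 fold change was -0.06. The higher gene was *Pecr*, a peroxisomal trans-2-enoyl-CoA reductase that acts in chain elongation, with an FPKM of 18.9, 15.7 and 11.9 in Ctrl against 25.3, 22.6 and 25.1 in cKO. Each cKO sample of *Pecr* lay above each Ctrl sample, with a limma adjusted p = 0.475 and a log2 fold change of 0.64. The lower genes were *Idh1*, the isocitrate dehydrogenase of cytosol and peroxisome, at 15.5, 14.8 and 14.5 in Ctrl and 11.3, 11.9 and 12.7 in cKO, and *Slc27a2*, a very long-chain acyl-CoA synthetase, at 0.656, 0.508 and 0.769 in Ctrl and 0.258, 0.322 and 0.295 in cKO. Both lacked overlap, with log2 fold changes of -0.30 and -0.35 (limma adjusted p = 0.482 and 0.546).

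Among 20 other mitochondrial genes, 1 higher and 0 lower genes passed an unadjusted p under 0.05, with a median log2 fold change of -0.02. The gene was *Ivd*, isovaleryl-CoA dehydrogenase of leucine breakdown, which passes electrons to the same flavoproteins. *Ivd* had an FPKM of 29.1, 27.1 and 20.9 in Ctrl against 81.3, 45.4 and 44.1 in cKO. Its log2 fold change was 1.07, at a limma adjusted p = 0.442. The samples did not overlap, and cKO replicate 1 was far above the rest. *Nudt8*, at a low level, was also higher without overlap, at 0.101, 0.112 and 0.0530 in Ctrl and 0.351, 0.253 and 0.195 in cKO. Its log2 fold change was 0.22, at a limma adjusted p = 0.691. In all, 2 of the 20 were higher without overlap, beside 7.11% of all genes tested.

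Of 35 known PPAR target genes, 28 were tested, of which 2 were higher and 1 was lower at an unadjusted p under 0.05, with a median log2 fold change of 0.01. *Pparg*, itself a PPAR, had an FPKM of 2.13, 2.76 and 2.52 in Ctrl against 3.26, 3.37 and 3.84 in cKO. *Acsl5*, an acyl-CoA synthetase, had 8.20, 8.64 and 8.12 in Ctrl and 10.1, 9.71 and 9.90 in cKO. The lower gene was *Fabp1*, the liver fatty acid binding protein, at 3.52, 7.36 and 1.09 in Ctrl and 0.103, 0 and 0.600 in cKO. The hepatocyte marker *Apoa1* was at 11.4, 15.6 and 1.75 in Ctrl and 0.322, 0.0931 and 2.06 in cKO, and the part of hepatocyte RNA in the *Fabp1* values was not tested. The genotypes did not overlap in *Pparg*, *Acsl5* or *Fabp1*, and their log2 fold changes were 0.37, 0.23 and -1.83 (limma adjusted p = 0.553, 0.581 and 0.489). *Txnip*, the most abundant gene of the list, was also higher without overlap, at 152, 159 and 148 in Ctrl and 231, 164 and 176 in cKO. Its log2 fold change was 0.30, at a limma adjusted p = 0.710. In all, 3 of the list were higher without overlap, beside 7.11% of all genes tested.

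Markers of other cells and responses were set beside *Ehhadh*, and their part in its difference was not tested. Of 17 genes of the lactogen response of β cells, receptors and STAT5 included, *Ivd* among them, 11 were higher without overlap and at an unadjusted p under 0.05, beside 7.11% and 4.33% of all genes tested. This list, like the others, was chosen with earlier results of these data known, so its count supports nothing. Their summed FPKM was 276, 213 and 203 in Ctrl and 487, 452 and 465 in cKO, with *Cldn8* the most abundant and no gene at 0 in all 6 samples. Of 10 β cell markers, 0 were higher and 1 was lower at that p. Their sum, mostly *Ins2*, was 235964, 268775 and 276386 in Ctrl and 195405, 205244 and 217645 in cKO. In cKO, 2 of the 10 had a higher and 8 a lower mean log2 value, with a median log2 fold change of -0.20. Without overlap, 1 was higher and 2 were lower, beside 7.11% and 6.03% of all genes tested. Of 7 endothelial markers, 2 were higher at an unadjusted p under 0.05, with *Plvap* the most abundant. Their sum was 139, 128 and 147 in Ctrl against 148, 162 and 181 in cKO.

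Of 6 hepatocyte markers tested, 0 were higher and 3 were lower, and albumin (*Alb*) was at 67.3, 28.3 and 4.88 in Ctrl and 0.972, 0.246 and 15.4 in cKO. The summed FPKM of the 7 listed was 892, 814 and 988 in Ctrl and 489, 854 and 738 in cKO, mostly from *Ttr*, which α cells express too. Of 7 adipocyte markers 2 were tested, 0 passed, *Lep* was at 0 in each sample, and the sum was 1.87, 1.76 and 1.42 in Ctrl and 1.20, 1.55 and 2.64 in cKO, mostly from *Lipe*. Acinar RNA varied widely, with a sum of 12 markers, led by *Ctrb1*, of 12869, 20546 and 7480 in Ctrl against 33863, 9284 and 28056 in cKO. All 12 had a higher mean log2 value in cKO, with a median log2 fold change of 0.68, and 0 passed in either direction.

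The stromal sum, led by *Dcn*, was 20.4, 11.8 and 13.9 in Ctrl and 15.6, 46.0 and 43.4 in cKO, and 2 of 8 markers were higher at that p. All 8 had a higher mean log2 value in cKO, with a median log2 fold change of 0.74. The ductal sum, led by *Spp1*, was 98.1, 64.9 and 69.7 in Ctrl and 84.4, 68.0 and 81.2 in cKO, with 1 of 7 markers higher and 1 lower. Of 7 α cell markers 2 were higher, with a sum of 11119, 12518 and 16377 in Ctrl against 8782, 16344 and 12823 in cKO, mostly from *Gcg*. Of 5 δ and PP cell markers 0 passed, with a sum, led by *Ppy*, of 26296, 28412 and 15610 in Ctrl against 23564, 26528 and 20627 in cKO.

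*Ehhadh* (ENSMUSG00000022853) lies on the reverse strand of chromosome 16 of GRCm38, at chr16:21761287-21787807, with a length of 2981 bases. *Parn* lies on the same chromosome, at chr16:13537960-13668170, a distance of 8.09 Mb. The 40 genes lie on 15 chromosomes. Within 1 Mb of *Ehhadh*, 20 other genes were tested, and their log2 fold changes ran from -0.28 to 0.62. The unadjusted p was under 0.05 in 4 of them, 3 higher in cKO and 1 lower, the pseudogene *Rps10-ps2*, beside 4.33% higher and 3.07% lower of all genes tested. One of the higher genes rests on 0 against 1 read a sample.

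Of the higher neighbours, *Gm24898* is a small nuclear RNA gene of 106 bases inside *Ehhadh* on the opposite strand. *Gm24898* had 0 reads in each Ctrl sample and 1 read in each cKO sample, and without strand in the counting such reads cannot be told apart from those of *Ehhadh*. The long noncoding RNA gene *1300002E11Rik* lies 6510 bases from the *Ehhadh* start and is transcribed in the opposite direction. Its FPKM was 3.73, 3.58 and 3.57 in Ctrl, from 274, 237 and 250 reads, and 4.67, 4.82 and 4.32 in cKO, from 346, 353 and 329 reads. *Tmem41a* had 5.14, 3.27 and 4.64 in Ctrl and 5.32, 7.78 and 6.18 in cKO. In all 3, each cKO sample exceeded each Ctrl sample, with a log2 fold change of 0.62, 0.28 and 0.48.

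**Figure D3:**
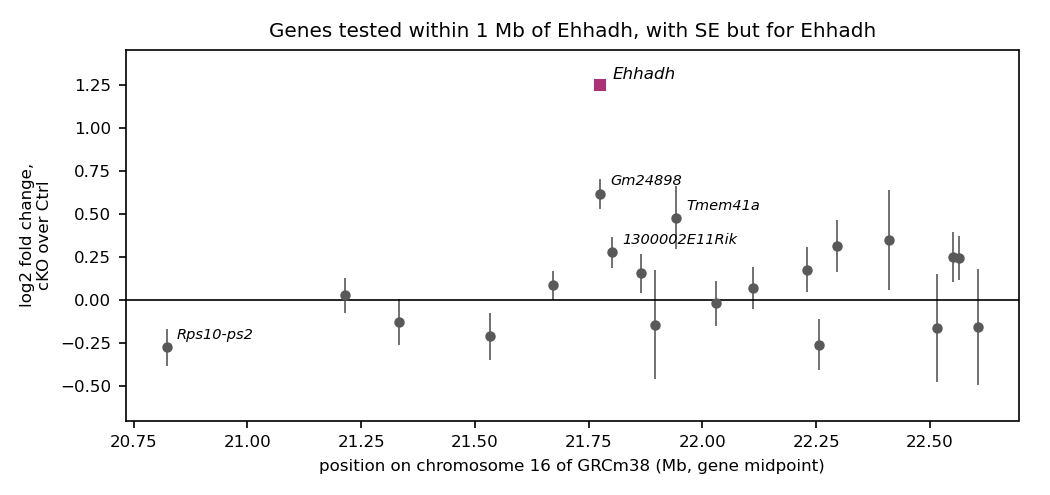
Log2 fold change of cKO over Ctrl islets, for *Ehhadh* (square) and, with its standard error (lines), the 20 other genes tested within 1 Mb of it (dots), by gene midpoint on chromosome 16 of GRCm38 in megabases; neighbours at an unadjusted p under 0.05 are named. *Ehhadh* is at 1.25, and its neighbours lie between -0.28 and 0.62.

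Some of the 40 genes share bases with a gene on the other strand. In 13 genes at least 1 exon base overlapped an exon of the opposite strand in GENCODE M21, and for *Acadvl* this was 42.9% of its exon bases, shared with *Dvl2*, which had a mean FPKM of 3.40. Where the counting did not use strand, the values of such genes hold reads of both and are uncertain. On the same strand, *Etfb* shared 53.0% of its exon bases with *Gm45233*, which was listed at 0, and 5.24% with *Mir7051*, so its values are uncertain with strand too. *Ehhadh* had no exon base in common with another gene.

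Promoters from RefSeq (GRCm38.p6), from 250 bases before to 50 after a gene start, were found for 34 of the 40 genes, with 38 starts. The others were *Abcd2*, *Acaa2*, *Crat*, *Hsd17b4*, *Pex2* and *Pex19*. Letters of sites bound by factors known to control oxidation genes were searched on both strands. The PPAR and RXR site, written as AGGTCA repeated in the same direction after 1 base, was found in 0 of the 38 and in 0.0396% of all 32851 promoters. The extended half-site of estrogen-related receptors, TCAAGGTCA, which holds the letters AGGTCA, was found in 0 of the 38 and in 0.423% of all promoters. The STAT site TTCNNNGAA was found in 4 of the 38, those of *Cpt2*, *Pex16*, *Hadha* and *Hadhb*, and in 8.30% of all. These strict spellings are rare, and their absence says only that these letters are not in the window.

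In GENCODE M21, *Hadha* and *Hadhb* start with 85 bases between them and head away from each other, and their RefSeq promoters share 1 STAT match on chromosome 5. The matches are printed below with 10 bases on each side and the motif in capitals, because this was the only 1 of these motifs that was found. They are 3 separate sites, picked by the motif, so the letters they share are no link between the genes. The *Cpt2* match is on the reverse strand at chr4:107923771-107923799, the *Hadhb* match on the forward strand at chr5:30155118-30155146 and the *Pex16* match on the forward strand at chr2:92375168-92375196.
Cpt2: ttctatccagTTCTGTGAAaggaaaagag
Hadhb: aaaggatgatTTCTCTGAAggtgagacta
Pex16: ctcggcgatcTTCTGAGAAagtctgaggc

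The 250 bases before the *Ehhadh* start are shown because this gene stood apart from the rest. They lie at chr16:21787835-21788084 on the reverse strand and hold 60.4% G and C. They have 0 matches to the half-site AGGTCA on either strand, which 4607 of the 32851 promoters hold in the same 250 bases, and no letters are therefore in capitals.
Ehhadh: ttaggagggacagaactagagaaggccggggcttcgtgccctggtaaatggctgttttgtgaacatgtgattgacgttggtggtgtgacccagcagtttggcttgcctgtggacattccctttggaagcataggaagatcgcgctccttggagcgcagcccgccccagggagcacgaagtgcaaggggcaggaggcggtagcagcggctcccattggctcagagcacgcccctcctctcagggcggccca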

How the data were processed

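Per the labels and the methods, RNA was extracted with TRIzol and libraries were prepared with a SMARTER mRNA kit; the aligner and the use of strand are not given in the sources used here. The authors deposited FPKM per gene and sample, with gene lengths and GRCm38 coordinates. From FPKM, the log2(FPKM + 1) values of 3 Ctrl and 3 cKO samples were compared, for a mean FPKM of at least 0.1, with limma 3.58.1 in R 4.3.3 (trend, two-sided, Benjamini-Hochberg adjustment over 21211 genes). The authors compared the genotypes with DESeq2, which was not used for the results here. The number of genes called at an adjusted p under 0.05 depends on the test, with 0 for the main limma fit and 2 for voom. The 0 holds for the limma fit only and does not carry over to a count test such as DESeq2. FPKM times length gave whole reads for 100% of values within a tolerance of 0.1, and these were used for depth and for voom. The genes, the 14 lists and the alternatives were chosen with earlier results of these data known. Values per sample are given for *Ehhadh*, the PPAR regulators, genes without overlap or past an unadjusted p under 0.05, and the most abundant gene of each role. *Hsd17b4*, *Acaa1a*, *Acaa1b*, *Cpt1a*, *Cat*, *Acaa2*, *Hadha*, *Alb*, *Lep* and the neighbours of *Ehhadh* were added after their values were seen. Exon overlaps are from GENCODE M21. Python 3.11.15, Biopython 1.88 and matplotlib 3.10.9 were used for sequences and figures. The code was tested on simulated data. Of 100 genes simulated with a 2-fold difference, 35 had an adjusted p under 0.05 with limma. Of the genes simulated without a difference, 6.35% had an unadjusted p under 0.05. LACE-seq was not analysed here.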

Additional observations from a re-analysis of the deposited data

How the results depend on the processing

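Under each of the 13 alternatives, *Ehhadh* had the highest log2 fold change of the 40 genes. It was 1.16 to 1.35 with 1 sample left out and 1.43 with limma's voom. These fits reuse the samples whose *Ehhadh* values chose the genes, so this rank is a description only. Under voom the median of all genes was 0.069, against -0.014 in the main fit. The mitochondrial median was then -0.022 and the peroxisomal one -0.0033. With voom, 2 of all genes and 1 of the 40 had an adjusted p under 0.05; the 1 was *Ehhadh*, whose difference chose the genes, so nothing is read from it. Also with voom, 1499 genes were higher and 328 lower at an unadjusted p under 0.05, and 2 of the 40 were higher, *Hadhb* and, as a description only, *Ehhadh*, which is in every such count. The number of the 40 lower at that p was 0 with a pseudocount of 0.1, 2 with no filter and 0 under median-ratio scaling. Over all genes tested in these fits it was 662 of 21211, 746 of 29296 and 631 of 21211. Leaving out 1 sample gave 0 to 14 genes at an adjusted p under 0.05. At the unadjusted p it gave 683 to 1231 higher and 401 to 1142 lower genes, with 1 to 2 of the 40 higher and 0 to 3 lower. Without overlap, 2 to 4 of the 40 were higher and 5 to 15 lower, the last pair also because fewer samples overlap less. The 15 stand beside 14.8% of all genes tested without Ctrl replicate 1. For the other counts without overlap no share over all genes is given, so nothing is read from them. The highest count of each kind came without Ctrl replicate 1. The cause was not tested. Of the other 39 genes, *Abcd2* was at -0.71, *Acaa1b* at -0.78 and *Ppargc1a* at 0.14 with a pseudocount of 0.1. With voom, *Abcd2*, *Acaa1b* and *Ppargc1a* were at -0.78, -0.91 and 0.45, and *Ppara* was at 0.13. *Hsd17b4*, *Acadl*, *Acadm*, *Hadha* and *Etfdh* were then at 0.22, -0.05, 0.14, 0.03 and 0.04. Further genes also changed with voom, and 11 of the 40 changed sign.

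Same-numbered samples had correlations of deviations of -0.17, -0.02 and -0.07, so the numbers do not pair the samples. With the replicate block, 0 of the 40 were lower at an unadjusted p under 0.05, beside 538 of all 21211 genes tested.

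The depth limits the genes with few reads, *Ppara*, *Ppargc1a*, *Abcd2* and *Acaa1b*. With 3 samples a genotype and 0 genes past the adjusted threshold in the main test, the intervals, and not the absence of calls, bound the differences of the other genes. The cell types behind *Ehhadh* were not separated, and protein and enzyme activity were not analysed here.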
